A study of Mus musculus with 12 samples.

Results

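Genes named for DNA replication and mitosis were followed in Apcmin mice, on 12 arrays that hold RNA of normal tissue or of tumours. The members were all probes whose gene symbol begins with Mcm plus a digit, Orc, Rfc, Cdc plus a digit, Cenp, Kif, Aurk, Bub, Plk, Rrm, Top2, Ccna, Ccnb, Ccne, Pola, Pold or Pole. The rule found 82 probes for 61 genes, of 46628 probes and 8106 named genes in all. Of these, 61 probes for 51 genes exceeded background on at least 2 arrays and were tested, and 39 of the 51 genes exceeded it on all 12. The 10 genes that did not pass were Cenpc1, Aurkc, Bub1, Cdc23, Kif15, Kif24, Kif2a, Kif5b, Kifc5c-ps and Cdc42bpa. A symbol prefix is a loose guide to function, and the label fits only part of the members. Of the 51 genes, 28 have a place in replication, the cell cycle or chromosome segregation. The other 23 are 14 further kinesin genes, many of which serve transport along microtubules, and 9 genes such as Cdc42 and its effectors, Cdc40 and Cdc73. The split follows a list of roles and does not mean that none of the 23, Cdc34 and Cdc5l among them, acts in the cell cycle. Many of the usual proliferation genes, among them Mcm2 to Mcm6, Top2a, Ccna2, Aurka and Aurkb, were not among the members found and were not analysed here.

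Before a cell copies its DNA, the origin recognition complex and Cdc6 load the MCM helicase onto chromatin. Replication factor C then places the sliding clamp for the DNA polymerases, while ribonucleotide reductase supplies the nucleotides. In mitosis, cyclin B1 with its kinase and Plk1 drive the cell forward, Cdc20 switches on the anaphase-promoting complex, and kinesins and centromere proteins move the chromosomes. In the intestine, dividing cells lie in the crypts, and the adenomas of Apcmin mice keep dividing cells outside them.

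All 12 samples came from Apcmin mice, which carry a mutant copy of the tumour suppressor Apc, and each of the 6 groups held 2 arrays. Normal and tumour tissue were each taken from mice labelled wt, from mice of the genotype Vil-Cre;Mib1f/f (Notch-inactivated) and from mice of the genotype Vil-Cre;RosaN1+/RN1 (Notch-activated). Villin-Cre acts in the gut epithelium, where it removes Mib1, a ubiquitin ligase that Notch ligands need, or switches on a Notch1 transgene. The labels name neither age, nor gut segment, nor whether a group's 2 arrays hold different animals. The p-values therefore measure only how far these samples spread, and that spread may be technical.

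The values are log2 signals with the same median of 5.54 on every array. The background limit lay between 5.58 and 5.82, and 35.1% to 47.4% of probes exceeded it. The eGFP reporter signal was at least 9.50 on the 4 Notch-activated arrays and at most 5.48 on the other 8. Marker lists of other cell types differed between the groups. They are given here as summed linear signals, first for lists with at least 3 measured genes. For 5 of 6 fibroblast markers the sum was 300 to 484 in normal tissue, with 3 or 4 of the 5 at background. It was 7068 to 10105 in wild type and Notch-inactivated tumours and 3863 to 4465 in Notch-activated tumours. For 4 of 8 myeloid markers it was 209 to 380 in normal tissue, 2126 to 4078 in the first pair of tumour groups and 1087 to 1277 in Notch-activated tumours. The 3 of 5 endothelial markers summed to 131 to 153 in normal tissue and 537 to 814 in tumours. The 4 of 9 enterocyte markers summed to 1049 to 1807 in normal tissue, 384 to 487 in wild type and Notch-inactivated tumours and 775 to 899 in Notch-activated tumours. The 5 of 6 Paneth markers summed to 215 to 461 in wild type normal tissue and both Notch-activated groups and to 6958 to 15337 in the other groups. Of these markers Ang4 did not follow the sum. On the log2 scale it read 7.65 and 6.02 in wild type normal tissue and 5.01 to 5.30 in tumours. The 4 of 6 epithelial keratins summed to 19266 to 22248 in normal tissue. They summed to 15969 to 19033 in wild type and Notch-inactivated tumours and 20837 to 22855 in Notch-activated tumours. On the log2 scale Krt19 read 11.81 and 11.89 in wild type normal tissue and 11.14 and 11.19 in wild type tumours. Krt18 went the other way, from 11.54 and 11.16 to 11.80 and 12.08. Other lists had 1 or 2 measured genes. Ascl2 (stem cell) gave 43 to 88 in normal tissue and 108 to 141 in wild type and Notch-inactivated tumours. It gave 64 to 81 in Notch-activated tumours. Clca1 (goblet) gave 11025 to 16349 in wild type and Notch-inactivated normal tissue and 56 to 4385 elsewhere. Igkc (plasma cell) gave 124 to 866 in normal tissue and 5216 to 15403 in tumours. Cd3e (T cell) gave 41 to 59 and 39 to 59 in that order, and 2 globin genes 293 to 1440 and 987 to 9442. In whole tissue, fewer cells of a type and less RNA per cell cannot be told apart, and the part of cell composition in each result below was not tested.

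Averaged over the 3 genotypes, tumours had more RNA from the helicase subunit Mcm7 and from the mitotic genes Ccnb1, Plk1 and Kif18b than normal tissue, and less from the origin subunit Orc3. A gene was called where limma gave an adjusted p under 0.05, with Benjamini-Hochberg adjustment over 23442 features. Of the 28 replication and mitosis genes, 12 were higher and 4 lower in tumours, with Rrm2b among the 4. That is 42.9% and 14.3%, against 31.4% and 34.3% of all features (65.7% called in either direction). The median difference was 0.17 on the log2 scale over the 28 genes and -0.016 over all features. All 51 members gave 18 higher and 8 lower (35.3% and 15.7%), with a median of 0.013. The 23 other kinesins and other genes gave 6 and 4, or 26.1% and 17.4%, with a median of -0.076.

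**Figure D1:**
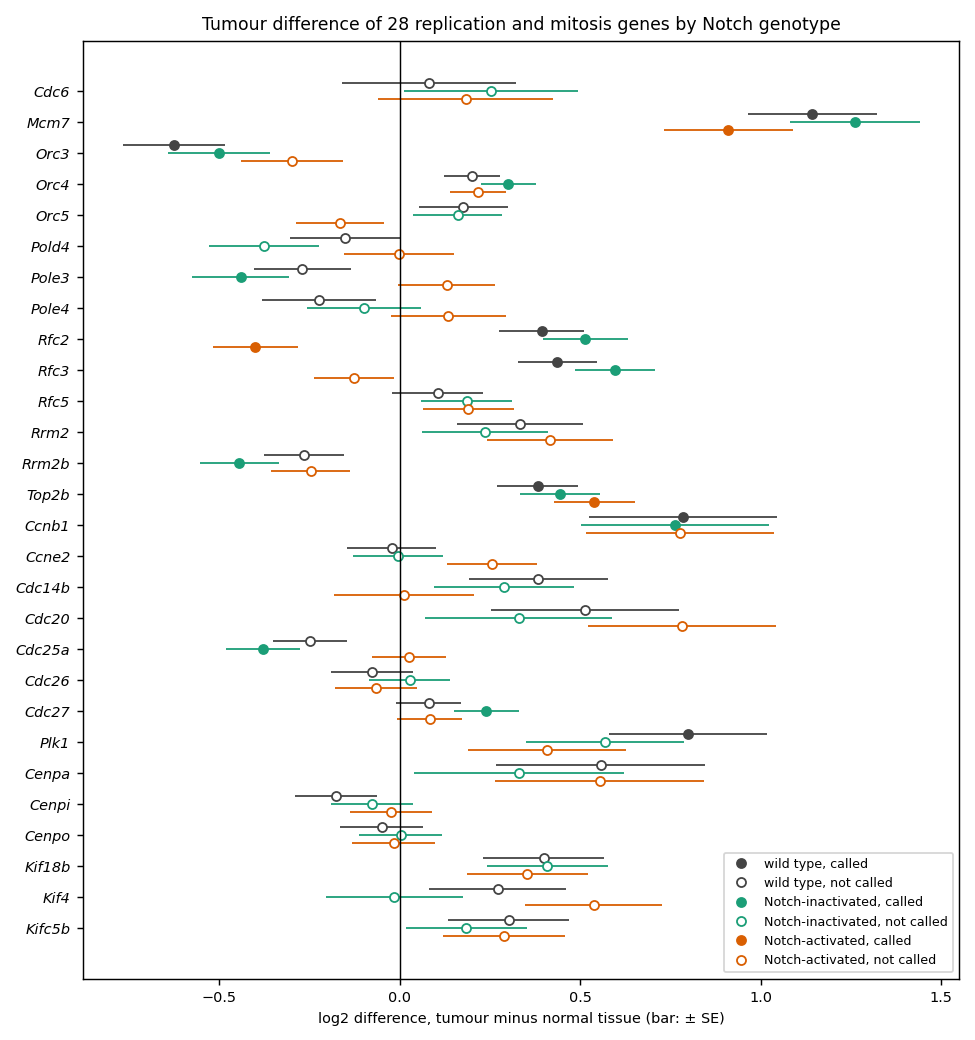
Difference between tumour and normal tissue (x axis, log2, with its standard error) for the 28 tested replication and mitosis genes, 1 row each, in wild type (grey), Notch-inactivated (green) and Notch-activated mice (orange), with 2 arrays per group. Filled points were called by limma. Mcm7 lies farthest to the right in each genotype (0.91 to 1.26), and for Rfc2, Rfc3 and Orc5 the orange point lies to the left of 0 while the other points lie to the right.

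The licensing genes did not move as a block. Mcm7, a subunit of the replicative helicase, read 9.06 and 8.45 in wild type, 8.75 and 8.82 in Notch-inactivated and 8.57 and 8.65 in Notch-activated normal tissue. In tumours it read 9.92 and 9.87, 10.23 and 9.87, and 9.49 and 9.55. All 6 tumour arrays lay above all 6 normal arrays, and the Notch-activated tumours were the lowest of the tumours. No licensing gene, Mcm7 included, was called by limma between Notch-activated and wild type tumours. Mcm7 rose by 1.14 ± 0.18 (SE, 2 arrays per group) in wild type tumours (adjusted p = 5.62e-04). It rose by 1.26 ± 0.18 in Notch-inactivated tumours (adjusted p = 3.21e-04) and by 0.91 ± 0.18 in Notch-activated tumours (adjusted p = 0.00635). These calls held when any 1 of the 12 arrays was left out, and the mean over genotypes was 2.15-fold.

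Orc3, a subunit of the origin recognition complex, moved the other way. Its signal was 6.94 to 7.18 on the normal arrays and 6.37 to 6.86 on the tumour arrays, with no overlap. It fell by 0.63 ± 0.14 in wild type tumours (adjusted p = 0.00479) and by 0.48 ± 0.082 on the mean (adjusted p = 5.72e-04). The sister subunit Orc4 was faint, at background in both Notch-altered normal groups, and was at least 1.14-fold higher on the mean (adjusted p = 9.43e-04). A second Orc4 probe was at background on all 6 normal arrays. Cdc6, which loads the helicase with the complex, had a mean difference of 0.17 ± 0.14 (95% interval -0.14 to 0.48, adjusted p = 0.299).

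Among polymerase and clamp loader genes the calls were few. Rfc3, a clamp loader subunit, was higher by 0.30 ± 0.064 on the mean of the genotypes (adjusted p = 0.00207). Pole3, a small subunit of polymerase epsilon, was lower by 0.19 ± 0.078, with an adjusted p just under 0.05. Its call was lost in 8 of the 12 fits that each left out 1 array, with adjusted p up to 0.134, and it was kept in only 1 of 7 other settings. Rfc2 and Rfc3 depended on the Notch genotype and are taken up with it below. Of the genes for nucleotides and DNA topology, Rrm2, the regulated subunit of ribonucleotide reductase, read 6.76 to 7.42 in normal tissue and 7.21 to 7.89 in tumours. The ranges overlapped, and the mean difference was 0.33 ± 0.10 (adjusted p = 0.0155). A second Rrm2 probe exceeded background on only 5 arrays.

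Top2b is the topoisomerase II that, unlike Top2a, is also made in cells that no longer divide. It read 5.64 to 6.02 in normal tissue and 6.15 to 6.38 in tumours, and the arrays did not overlap. It rose by 0.38 ± 0.11 in wild type (adjusted p = 0.0175), 0.44 ± 0.11 in Notch-inactivated (adjusted p = 0.0084) and 0.54 ± 0.11 in Notch-activated tumours (adjusted p = 0.00819). The wild type call was lost without normal array 2 or either tumour array of that genotype, and the Notch-inactivated call without array 1 of either tissue. The Notch-activated call was lost without normal array 2 or tumour array 1, and the adjusted p reached 0.112, 0.0639 and 0.0584 in the 3 genotypes. Rrm2b, the reductase subunit used outside S phase, exceeded background only on the 2 Notch-inactivated normal arrays, at 5.83 and 5.77. It was kept through those arrays alone, so its place among the lower genes follows from the filter and is not read.

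The cyclin Ccnb1 read 8.14 and 8.17 in wild type normal tissue, 8.15 and 8.55 in Notch-inactivated and 8.62 and 8.0 in Notch-activated normal tissue. In the tumours it read 8.86 and 9.02, 9.48 and 8.76, and 9.27 and 8.90. No tumour array fell below a normal one, but the 2 arrays of a group lay up to 0.72 apart. Ccnb1 rose by 0.79 ± 0.26 in wild type tumours (adjusted p = 0.0306) and by 0.76 ± 0.26 in Notch-inactivated tumours (adjusted p = 0.0337). The difference in Notch-activated tumours was of like size, 0.78 ± 0.26, with an adjusted p of 0.055. The wild type call was lost without any 1 of the 4 wild type arrays (adjusted p = 0.0704 to 0.122). The Notch-inactivated call was lost without array 1 of its normal tissue or of its tumours (adjusted p = 0.184 and 0.252). The mean over genotypes, 0.77 ± 0.15 (adjusted p = 0.00124), held without each array. Ccne2, a cyclin of the G1 to S transition, had a mean difference of 0.076 ± 0.072 (95% interval -0.084 to 0.24, adjusted p = 0.372).

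Plk1, the polo-like kinase of mitosis, read 8.60 and 8.54 in wild type normal tissue and 9.36 and 9.37 in wild type tumours. It rose by 0.80 ± 0.22 there (adjusted p = 0.0128). Leaving out normal array 2 or tumour array 1 of the wild type ended that call (adjusted p = 0.0591 and 0.0517). In the Notch-altered mice normal arrays reached 9.21 and tumour arrays went down to 9.17, and the differences of 0.57 ± 0.22 and 0.41 ± 0.22 did not pass (adjusted p = 0.0534 and 0.201). On the mean Plk1 was 0.59 ± 0.13 higher (adjusted p = 0.00222), and this held without each array.

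Cdc20, the activator of the anaphase-promoting complex, was read by 3 probes that disagreed. The brightest gave 8.03 to 8.69 in normal tissue and 8.42 to 9.26 in tumours, and rose by 0.54 ± 0.15 on the mean (adjusted p = 0.00948). The other two gave -0.11 ± 0.085 and -0.031 ± 0.13 (adjusted p = 0.263 and 0.846), and with the 3 averaged the gene was not called (adjusted p = 0.346). Cdc25a, a phosphatase that activates cyclin-dependent kinases, was called lower on the mean of the genotypes, and this held without each array. In Notch-inactivated tumours it fell by 0.38 ± 0.10 (adjusted p = 0.0121). That call was lost without tumour array 2 (adjusted p = 0.114). Cdc27, a subunit of the anaphase-promoting complex, rose by 0.13 ± 0.052 on the mean (adjusted p = 0.0422), and 8 of the 12 fits with 1 array left out did not call it.

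Of the chromosome proteins, the centromeric histone Cenpa read 9.89 and 9.92 in wild type normal tissue and 10.46 and 10.47 in wild type tumours. In Notch-inactivated tumours its arrays read 10.92 and 10.02, and in Notch-activated tumours 10.82 and 10.15, so that the lower array of each came within the normal range of 9.67 to 10.19. Cenpa was 0.48 ± 0.17 higher on the mean (adjusted p = 0.0282). That call was lost in 8 of the 12 fits with 1 array left out, with adjusted p up to 0.0837, and no single genotype passed. The mitotic kinesin Kif18b, which acts on microtubule ends, was 0.39 ± 0.097 higher on the mean (adjusted p = 0.00555). Kifc5b, a kinesin of the C-terminal motor class, was 0.26 ± 0.097 higher (adjusted p = 0.0381), and 6 of those 12 fits did not call it.

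**Figure D2:**
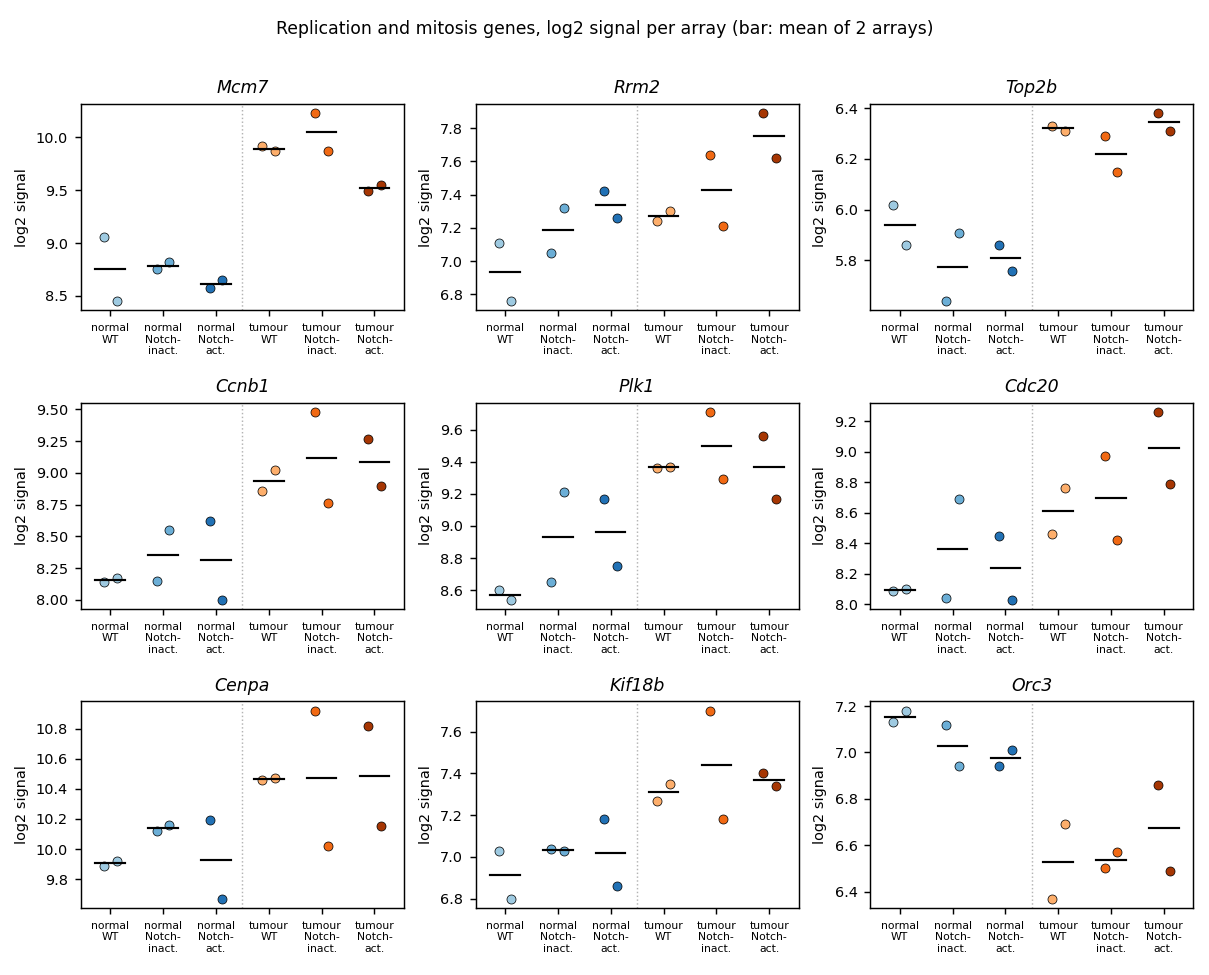
Log2 signal (y axis) of 9 replication and mitosis genes in the 6 groups (x axis), with 1 point per array, array 1 at the left and array 2 at the right, and a bar at the mean of 2. Mcm7, Top2b and Ccnb1 show every tumour array above every normal array and Orc3 every tumour array below, while the 2 points of the Notch-inactivated tumours lie 0.90 apart for Cenpa and 0.72 apart for Ccnb1.

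Taken over all 12 arrays, 6 of the 51 members (11.8%) had every tumour array above every normal one, against 15.1% of all features. They were Ccnb1, Mcm7, Orc4, Top2b, Kif3a and Kif3c. Another 3 (5.88%, against 15.7%) had every tumour array below, namely Orc3, Rrm2b and Cdc42bpg, of which Rrm2b was at background in 5 of the 6 groups, so that its order says little. Kif3c was kept through tumour arrays alone. Both shares lay below those of all features.

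The stretches before the start of the genes that rose are shown next, because these genes share a short motif there. They come from RefSeq in the build GRCm38.p6, with 1 stretch per gene of 150 bases that ends just before the annotated start. Motif letters were searched on both strands of the 250 bases before the start, namely CCAAT (the NF-Y box), the E2F-like letters TTTCCCGC, TTTGGCGC and TTTCGCGC, and the letters TTTGAA of the cell cycle homology region. No motif lies inside another. A start was found for 43 of the 51 tested members, of which 25 belong to the 28 replication and mitosis genes. The capitals mark matches, and ATTGG is CCAAT on the other strand. The first 6 stretches belong to genes that were higher in tumours on the mean.
Ccnb1, chr13:100786487-100786636, minus strand: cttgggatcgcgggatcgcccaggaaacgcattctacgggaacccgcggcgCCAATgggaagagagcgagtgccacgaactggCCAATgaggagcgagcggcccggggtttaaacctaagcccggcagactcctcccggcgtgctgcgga
Cdc20, chr4:118437344-118437493, minus strand: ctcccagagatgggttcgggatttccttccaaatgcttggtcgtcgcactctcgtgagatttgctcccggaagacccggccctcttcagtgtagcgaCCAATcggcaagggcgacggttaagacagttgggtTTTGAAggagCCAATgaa
Plk1, chr7:122159285-122159434, plus strand: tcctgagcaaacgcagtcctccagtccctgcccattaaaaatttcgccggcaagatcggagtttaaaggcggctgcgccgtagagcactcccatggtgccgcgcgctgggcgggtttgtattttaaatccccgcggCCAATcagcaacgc
Rrm2, chr12:24708104-24708253, plus strand: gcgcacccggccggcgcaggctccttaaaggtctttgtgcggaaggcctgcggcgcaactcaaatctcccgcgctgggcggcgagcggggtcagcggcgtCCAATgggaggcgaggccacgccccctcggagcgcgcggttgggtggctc
Top2b, chr14:16365056-16365205, plus strand: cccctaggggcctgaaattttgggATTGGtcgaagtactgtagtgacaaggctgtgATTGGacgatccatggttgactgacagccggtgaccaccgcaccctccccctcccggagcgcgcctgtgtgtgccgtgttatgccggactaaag
Kifc5b, chr17:26916941-26917090, plus strand: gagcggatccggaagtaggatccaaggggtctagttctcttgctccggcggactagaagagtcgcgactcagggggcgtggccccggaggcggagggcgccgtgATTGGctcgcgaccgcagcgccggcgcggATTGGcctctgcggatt
For comparison, Rfc3 (higher on the mean) held an E2F-like match beside its start, while Pole3 and Cenpi were not higher and held no match in 150 bases. Other genes that were not higher, namely Pold4, Cdc14b, Cdc25a and Kif4, did hold CCAAT and are not printed.
Rfc3, chr5:151651209-151651358, minus strand: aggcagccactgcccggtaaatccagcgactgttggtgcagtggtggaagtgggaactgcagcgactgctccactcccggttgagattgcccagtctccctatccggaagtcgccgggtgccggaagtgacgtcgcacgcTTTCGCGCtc
Pole3, chr4:62525015-62525164, minus strand: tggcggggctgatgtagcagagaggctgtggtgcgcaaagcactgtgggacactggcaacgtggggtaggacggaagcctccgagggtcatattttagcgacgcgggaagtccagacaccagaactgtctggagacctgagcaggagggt
Cenpi, chrX:134307934-134308083, plus strand: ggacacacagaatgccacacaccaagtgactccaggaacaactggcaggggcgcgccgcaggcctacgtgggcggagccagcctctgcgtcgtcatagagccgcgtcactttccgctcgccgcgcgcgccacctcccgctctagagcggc

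CCAAT lay before the start of 12 of the 12 genes of the 28 that were higher on the mean and had a promoter (100%), or 13 of their 15 listed promoters (86.7%). Orc4 held it at 1 of its starts only, at -248, and Rfc3 at -229, both outside the length printed above. It lay before 4 of the 13 that were not higher (30.8%), namely Pold4, Cdc14b, Cdc25a and Kif4. The share was 64.0% (16 of 25) over all these genes and 33.3% (6 of 18) among the other kinesins and other genes. Across all named genes tested it was 40.1% of those higher in tumours and 41.8% of those lower, and 37.5% of all genes in the table (33.9% of 32851 promoters). E2F-like letters lay before 6 of the 25 genes (24.0%), which were Orc3, Mcm7, Rfc3, Pole4, Cdc25a and Cdc6, and before 0 of the 18 others, against 3.56% of named genes tested and 1.78% of all genes. Of these 6, Mcm7 and Rfc3 rose, Orc3 and Cdc25a fell, and Cdc6 and Pole4 were not called. TTTGAA lay before 1 of the 25 genes, Cdc20, against 14.0% of named genes tested and 18.3% of all genes. The split into higher and not higher rests on calls in these same data, and several were unstable. The calls of Cenpa and Cdc27 were lost in 8 of the 12 fits with 1 array left out, and that of Kifc5b in 6. Cdc20 was not called with its 3 probes averaged. A match describes letters in these windows and says nothing of binding.

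**Figure D3:**
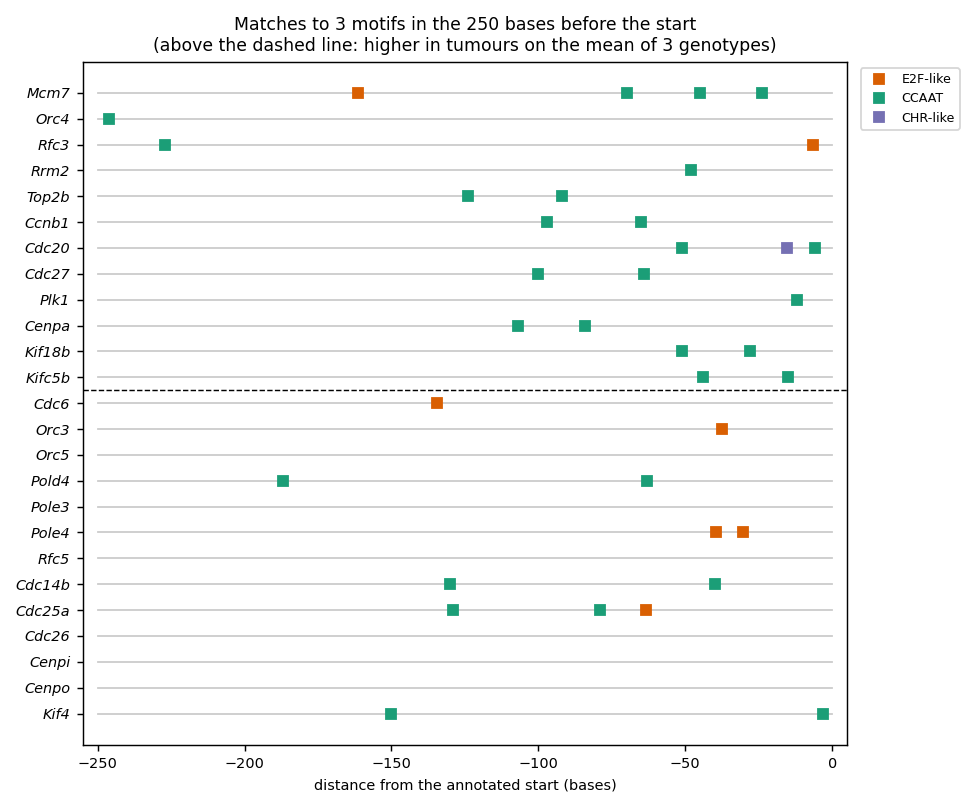
Matches to CCAAT (green), E2F-like (orange) and CHR-like letters (purple) by distance from the annotated start (x axis, bases), 1 line per gene for 25 replication and mitosis genes. The 12 genes above the dashed line were higher in tumours on the mean of the genotypes and each hold at least 1 CCAAT, as do 4 of the 13 below it.

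Within wild type mice, 11 members were higher and 5 lower in tumours, or 21.6% and 9.8%, against 23.2% and 25.2% of all features (48.4% called). The 28 replication and mitosis genes gave 6 higher (Mcm7, Ccnb1, Plk1, Rfc3 at 0.44 ± 0.11, Rfc2 at 0.39 ± 0.12 and Top2b) and 1 lower (Orc3). The calls of 8 of the 16 members held without each of the 12 arrays. The other 8, among them Ccnb1, Plk1, Top2b and Rfc2, were lost without at least 1 array of the wild type, with adjusted p up to 0.223, and without tumour array 1 the number called was 9.

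In Notch-inactivated mice, 13 members were higher and 8 lower, or 25.5% and 15.7%, against 24.5% and 25.1% of all features (49.6% called). Of the 28 genes, 7 were called higher and 4 lower, Rrm2b among them, and Orc3 fell here too, by 0.50 ± 0.14 (adjusted p = 0.0146). Rfc3 rose by 0.60 ± 0.11 and Rfc2 by 0.51 ± 0.12 (adjusted p = 0.00155 and 0.00524), and Pole3 fell by 0.44 ± 0.13 (adjusted p = 0.0211). Cdc27 rose by 0.24 ± 0.09 (adjusted p = 0.0483), a call that 11 of the 12 fits with 1 array left out did not make, and Orc4 was at least 1.18-fold higher (adjusted p = 0.0091). Only 7 of the 21 calls held without each array (Mcm7, Kif21a, Kif3a, Kif3c, Cdc42bpg, Rfc2 and Rfc3), and without tumour array 1 of this genotype 11 were called.

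In Notch-activated mice, only 3 members were higher and 1 lower, or 5.88% and 1.96%, against 12.1% and 12.6% of all features (24.7% called). Mcm7, Top2b and Kif3c rose, and Rfc2 fell by 0.40 ± 0.12 (adjusted p = 0.0349), a call that 5 of the 12 fits with 1 array left out did not make (adjusted p up to 0.2). Without tumour array 1 or normal array 2 of this genotype 1 member was called, and without tumour array 2 it was 2. Without either Notch-inactivated normal array, which enters through the shared spread, 7 were called. After cyclic loess in place of the deposited scaling 8 members were called, 7 higher and 1 lower, and Ccnb1 and Cdc20 passed (adjusted p = 0.0496 and 0.0479). The median difference of the 28 genes was 0.16, against 0.19 in wild type and 0.21 in Notch-inactivated mice. These 3 comparisons use separate arrays but 1 estimate of the spread.

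**Figure D4:**
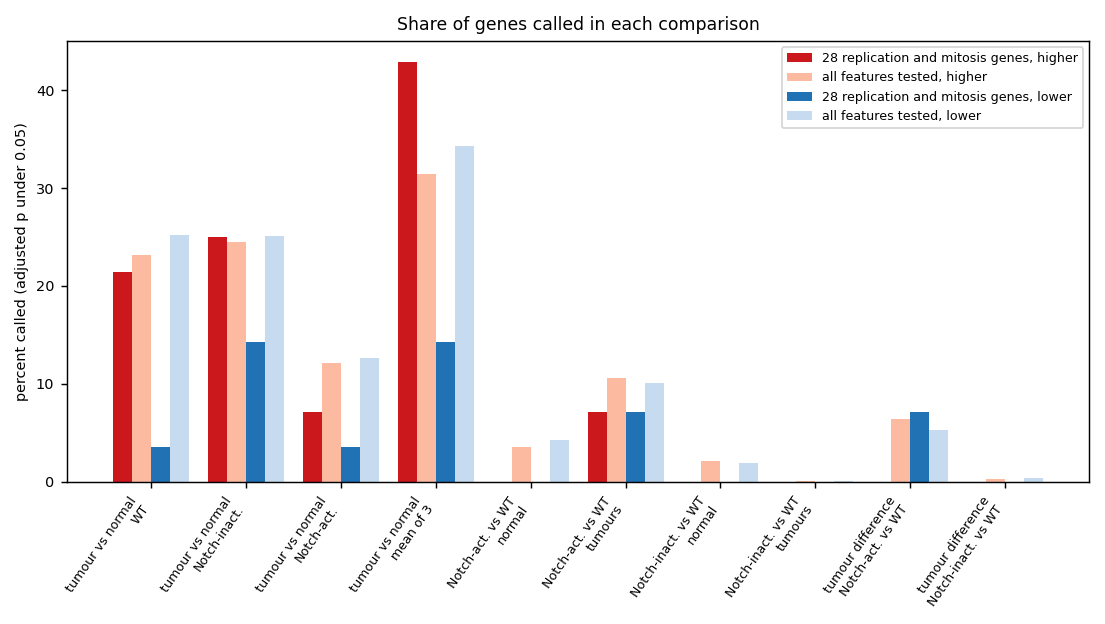
Percent of genes called by limma (y axis) in each of the 10 comparisons (x axis), for the 28 replication and mitosis genes (dark bars) and all 23442 features (pale bars), higher in red and lower in blue. On the mean of the 3 genotypes 42.9% of the 28 genes were higher, against 31.4% of all features, while 14.3% were lower, against 34.3%.

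Several kinesins that serve transport also differed between tumours and normal tissue. Kif3a and Kif3c are motor subunits and Kifap3 the accessory subunit of kinesin-2, which carries cargo along microtubules and into cilia. Kif3c did not exceed background on any normal array, where it read 5.51 to 5.59. It read 6.94 and 7.17 in wild type, 6.90 and 7.32 in Notch-inactivated, and 5.92 and 6.09 in Notch-activated tumours. It was kept through the tumour arrays alone, so its tumour difference is a description. The tumour arrays fell into a higher set of 4 and a lower set of 2, the latter Notch-activated. Kif3c was at least 2.46-fold higher in wild type tumours (adjusted p = 1.87e-05), at least 2.61-fold in Notch-inactivated tumours (adjusted p = 1.87e-05) and at least 1.2-fold in Notch-activated tumours (adjusted p = 0.0283). The last call was lost without any 1 of the 4 Notch-activated arrays (adjusted p = 0.0581 to 0.159).

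Kif3a read 7.49 to 7.84 in normal tissue and 8.54 to 8.82 in wild type and Notch-inactivated tumours. In Notch-activated tumours it read 7.92 and 8.03, just above every normal array. It rose by 1.12 ± 0.11 in wild type tumours (adjusted p = 2.48e-05) and by 0.91 ± 0.11 in Notch-inactivated tumours (adjusted p = 9.6e-05). A second Kif3a probe was also higher on the mean, by 0.56 ± 0.083 (adjusted p = 2.04e-04), while a second Kif3c probe was at background on all 6 normal arrays. Kifap3 rose by 0.33 ± 0.10 and 0.31 ± 0.10 in the same groups of tumours (adjusted p = 0.0236 and 0.0318). Each of these Kifap3 calls was lost without 1 or more arrays of its genotype, with adjusted p up to 0.157 and 0.177.

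Of the other transport kinesins, Kif1b, a carrier of mitochondria and vesicles, rose by 0.41 ± 0.10 in wild type and 0.42 ± 0.10 in Notch-inactivated tumours (adjusted p = 0.00828 and 0.00709). Each Kif1b call was lost without 1 tumour array of its genotype, array 1 of the wild type (adjusted p = 0.0804) and array 2 of the Notch-inactivated tumours (adjusted p = 0.0592). Kif21a, a kinesin that restrains microtubule growth, read 8.25 and 8.16 in wild type normal tissue and 7.21 and 7.15 in wild type tumours. It fell by 1.02 ± 0.11 there (adjusted p = 4.37e-05) and by 0.48 ± 0.11 in Notch-inactivated tumours (adjusted p = 0.00422). Kifc3, a minus-end motor, fell by 0.47 ± 0.094 in wild type tumours (adjusted p = 0.0026), and Kif17, a dendritic and ciliary motor, by 0.41 ± 0.12 (adjusted p = 0.019). The Kif17 call was lost without normal array 1 or 2 or tumour array 1 of the wild type (adjusted p = 0.0517 to 0.107). Kifc2 read 5.64 to 6.01 over all arrays, near background, and rose by 0.22 ± 0.081 in Notch-inactivated tumours (adjusted p = 0.0441), which 10 of the 12 fits with 1 array left out did not call.

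Among the remaining members, Cdc42bpg, a kinase that acts below the small GTPase Cdc42, read 8.17 to 8.43 in normal tissue and 7.60 to 8.15 in tumours. It fell by 0.68 ± 0.10 in wild type tumours (adjusted p = 4.81e-04) and 0.76 ± 0.10 in Notch-inactivated tumours (adjusted p = 2.45e-04). Cdc40, a splicing factor, rose by 0.38 ± 0.13 and 0.48 ± 0.13 in these groups (adjusted p = 0.0364 and 0.0131). The first Cdc40 call was lost without normal array 2 or tumour array 1 of the wild type (adjusted p = 0.219 and 0.223), and the second without normal array 1 or tumour array 2 of its genotype (adjusted p = 0.0526 and 0.0858).

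Notch activation was compared with the wild type within each tissue. The comparisons with the wild type share its arrays with each other and with the wild type tumour difference, so they are not independent. In tumours, 5 members were higher and 8 lower in Notch-activated mice, or 9.8% and 15.7%, against 10.6% and 10.1% of all features (20.7% called). Of the 28 replication and mitosis genes, 2 were higher and 2 lower, all 4 of them genes of polymerases and the clamp loader. Pole3 was higher by 0.53 ± 0.13 and the polymerase delta subunit Pold4 by 0.49 ± 0.15 (adjusted p = 0.0198 and 0.0455), while Rfc2 was lower by 0.54 ± 0.12 and Rfc3 by 0.45 ± 0.11 (adjusted p = 0.00978 and 0.0164). Each of the 4 calls was lost without at least 1 array of these tumour groups, with adjusted p up to 0.163, 0.297, 0.0801 and 0.0862. No cyclin, mitotic or centromere gene was called between these tumours, but the intervals were wide. Plk1 differed by -0.002 (95% interval -0.49 to 0.49), Ccnb1 by 0.15 (-0.44 to 0.73), Cenpa by 0.022 (-0.63 to 0.67) and Cdc20 by 0.41 (-0.17 to 0.99). The mitotic kinesin Kif4, named here after its values were seen, read 7.83 and 8.04 in wild type and 8.45 and 8.40 in Notch-activated tumours. The Kif4 difference of 0.49 (0.064 to 0.91) had an adjusted p of 0.106 by limma and was not called.

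The other 9 calls between these tumours fell on transport kinesins and Cdc42 or other genes. Kif3c was lower by 1.05 ± 0.14, Kif3a by 0.66 ± 0.11, Kif1b by 0.54 ± 0.10 and Kifap3 by 0.37 ± 0.10 (adjusted p = 5.3e-04, 0.00166, 0.00422 and 0.0303). Kif21a was higher by 0.90 ± 0.11 (adjusted p = 3.13e-04), at 8.13 and 8.03 against 7.21 and 7.15, and Kifc3 by 0.32 ± 0.094 (adjusted p = 0.0361). Cdc42ep3, an effector that binds Cdc42, was lower by 0.81 ± 0.15 and Cdc40 by 0.70 ± 0.13 (adjusted p = 0.00361 and 0.00417), and Cdc42bpg was higher by 0.41 ± 0.10 (adjusted p = 0.0191). Calls of 6 of all 13 members held without each array (Kif1b, Kif21a, Kif3a, Kif3c, Cdc40 and Cdc42ep3). Without wild type tumour array 1 the count was 6 and without Notch-activated tumour array 2 it was 7.

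In normal tissue, 0 members were higher and 2 lower with Notch activation (0% and 3.92%), against 3.59% and 4.22% of all features (7.81% called). Cdc42ep3 read 6.96 and 6.77, against 8.08 to 8.60 in the other normal tissue, and was lower than in the wild type by 1.35 ± 0.15 (adjusted p = 5.25e-04), which held without each array. Its low level in Notch-activated mice thus appeared in both tissues. Kif17 was lower by 0.48 ± 0.12 (adjusted p = 0.0419), and 9 of the 12 fits with 1 array left out did not call it. None of the 28 replication and mitosis genes was called by limma, and 2 of them had an unadjusted p under 0.05.

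**Figure D5:**
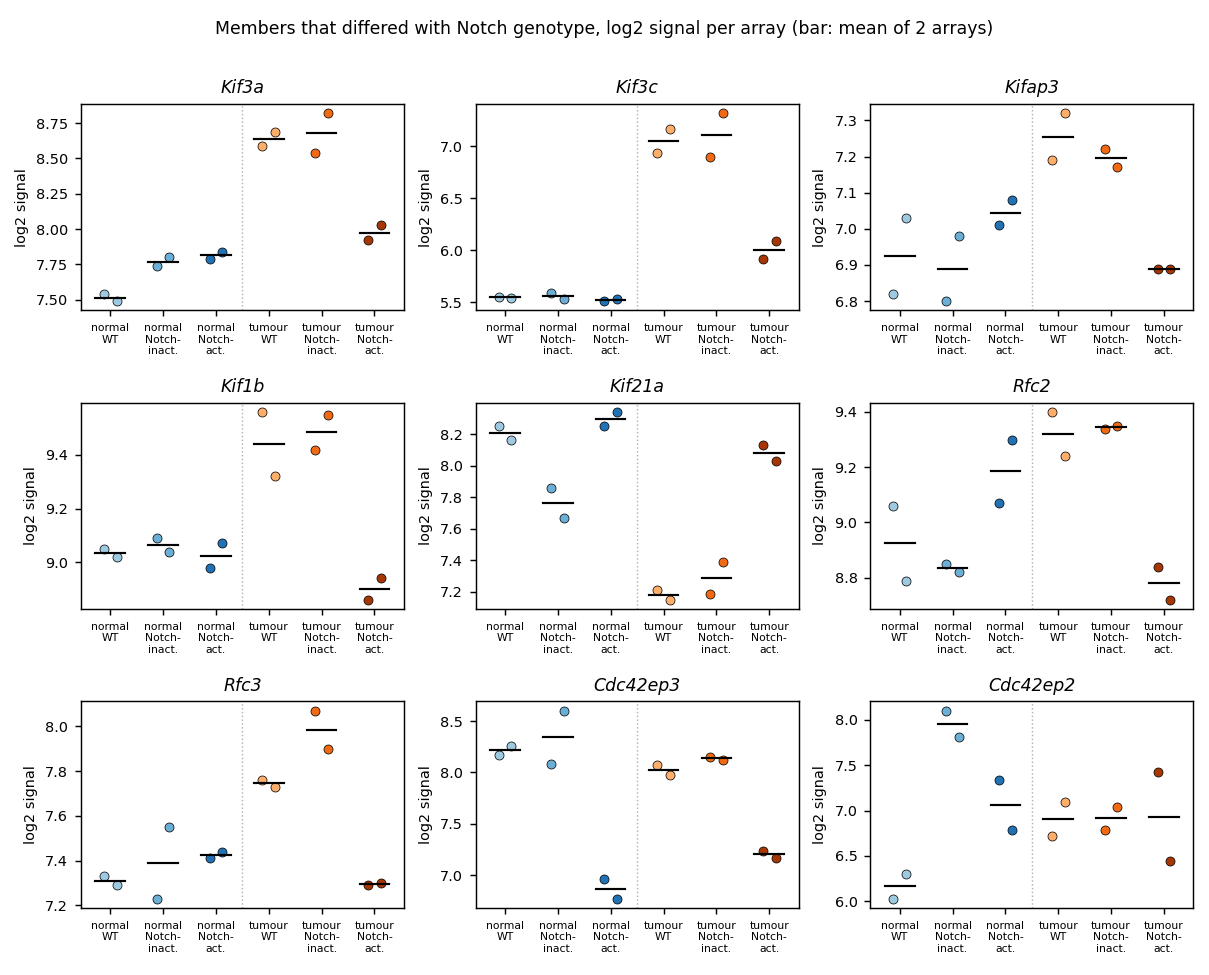
Log2 signal (y axis) of 9 members in the 6 groups (x axis), with 1 point per array and a bar at the mean of 2. For Kif3a, Kif3c, Kif1b, Rfc2 and Rfc3 the Notch-activated tumours lie below the other tumours, for Kif21a above them, and Cdc42ep3 is low in Notch-activated normal tissue and tumours alike.

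The difference between tumour and normal tissue itself was then compared between genotypes. The difference in Notch-activated mice minus that in the wild type was called above 0 for 1 member, Kif21a, whose fall was smaller, and below 0 for 5, or 1.96% and 9.8%, against 6.39% and 5.33% of all features (11.7% called). Rfc2 read 9.06 and 8.79 in wild type normal tissue and 9.40 and 9.24 in wild type tumours, but 9.07 and 9.30 in Notch-activated normal tissue and 8.84 and 8.72 in Notch-activated tumours. Its differences were 0.39 in the wild type and -0.40 with Notch activation, and they differed by -0.79 ± 0.17 (adjusted p = 0.0141). Rfc3 read 7.33 and 7.29, 7.76 and 7.73, 7.41 and 7.44, and 7.29 and 7.30 in the same order, and its differences were apart by -0.56 ± 0.16 (adjusted p = 0.0449). Leaving out array 2 of either Notch-activated tissue or array 1 of the wild type tumours ended the Rfc2 call (adjusted p = 0.0518 to 0.0575) and left 3 members called in all. The Rfc3 call was lost in 10 of the 12 fits with 1 array left out.

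The other 4 were kinesins. The Kif3a differences were apart by -0.96 ± 0.15 (adjusted p = 0.00372) and the Kif1b differences by -0.53 ± 0.14 (adjusted p = 0.0413), the latter lost in 9 of the 12 fits. The Kif21a differences, -1.02 and -0.21, were apart by 0.81 ± 0.15 (adjusted p = 0.00765). For Kif3c the fit gave -1.03 (adjusted p = 0.00827), but both normal groups lay at background, so that the size of each tumour rise is a bound. Kif3c was kept through the tumour arrays alone, so this call too is only a description. The second Kif3a probe gave -0.57 ± 0.20 (adjusted p = 0.108) and did not pass. Of the mitotic genes, Ccnb1 gave -0.0097 (95% interval -0.83 to 0.81) and Plk1 -0.39 (-1.08 to 0.30), intervals that span differences as large as the tumour rise itself.

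Notch inactivation through Mib1 gave few calls. Its tumours and wild type tumours differed in 0 of 51 members by limma, against 0.192% of all features (0.102% higher and 0.0896% lower), and 0 members had an unadjusted p under 0.05. The difference for Mcm7 was 0.15 (95% interval -0.25 to 0.55) and that for Ccnb1 was 0.18 (-0.40 to 0.76). In normal tissue 1 member was higher and 1 lower (1.96% each, against 2.1% and 1.96% of all features, with 4.07% called). Cdc42ep2, another Cdc42 effector, read 8.10 and 7.81 in Notch-inactivated and 6.03 and 6.30 in wild type normal tissue. It was higher by 1.79 ± 0.30 (adjusted p = 0.0109), a call lost without wild type normal array 1 (adjusted p = 0.0689). In Notch-inactivated tumours it read 6.79 and 7.04, lower than in the normal tissue of that genotype by 1.04 ± 0.30 (adjusted p = 0.0163). That call was lost without array 1 of either tissue (adjusted p = 0.0884 and 0.0853). Kif21a was lower by 0.44 ± 0.11 in Notch-inactivated normal tissue (adjusted p = 0.0488), and 11 of the 12 fits with 1 array left out did not call it. The tumour difference in Notch-inactivated mice was not called apart from that in the wild type for any member by limma, against 0.687% of all features (0.256% higher and 0.431% lower), and 2 members had an unadjusted p under 0.05.

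In some groups the 2 arrays differed in many of the replication and mitosis genes in the same direction. In Notch-inactivated tumours, array 1 exceeded array 2 for 21 of the 28 replication and mitosis genes (75%), by a median of 0.20, against 51.8% of all features and 43.5% of the other 23 members. The excess, given for genes chosen after their values were seen, was 0.90 for Cenpa, 0.72 for Ccnb1, 0.55 for Cdc20, 0.53 for Kif18b and 0.42 for Plk1. In Notch-activated tumours array 1 exceeded array 2 for 20 of the 28 genes (71.4%, against 48.6% of all features). In Notch-inactivated normal tissue it was the other way, with array 1 higher for 7 of the 28 (25%, against 49.9%) and Cdc20 lower by 0.65 on it. In wild type tumours, array 1 was higher for 10 of the 28 (35.7%), against 50% of all features and 39.1% of the other 23 members. Array 1 minus array 2 was -0.45 for Cdc6, -0.30 for Cdc20 and -0.16 for Ccnb1 there. It was only -0.012 for Cenpa, -0.0062 for Plk1 and 0.047 for Mcm7. In wild type normal tissue array 1 was higher for 67.9% of the 28, against 48.8% of all features. In Notch-activated normal tissue the share was 64.3%, against 50.9%. The array numbers carry no order, and the genes of 1 array are not independent of each other. Whether the proportion of dividing tissue taken differed between arrays was not tested.

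Other cell cycle genes were read from a list of 60, of which 18 were measured. On the mean of the genotypes 9 were higher and 1 lower in tumours (50% and 5.56%, median 0.17), against 31.4% and 34.3% of all features. They included the proliferation marker Mki67 at 0.42 ± 0.13, the sliding clamp Pcna at 0.48 ± 0.099, the survivin gene Birc5 at 0.59 ± 0.14 and the cyclin Ccnd1, a target of Wnt signalling, at 0.97 ± 0.10 (adjusted p = 0.0159, 0.00183, 0.00443 and 2.39e-05). The member of the E2F family E2f2 was lower by 0.52 ± 0.14 (adjusted p = 0.00675). In wild type tumours 4 of the 18 were higher and 0 lower (22.2% and 0%, against 23.2% and 25.2% of all features). In Notch-inactivated tumours it was 2 and 1 (11.1% and 5.56%, against 24.5% and 25.1%), and in Notch-activated tumours 1 and 0 (5.56% and 0%, against 12.1% and 12.6%). The shares that rose were thus near or below those of all features in each genotype. No gene of this list was called by limma between genotypes in either tissue, where 0 or 1 of the 18 had an unadjusted p under 0.05. Of 15 cell cycle inhibitors, 5 were measured, and 3 were lower in tumours on the mean and 0 higher (60% and 0%, against 34.3% and 31.4% of all features). They were the kinase inhibitor Cdkn1a at -0.59 ± 0.083, Btg1 at -0.33 ± 0.10 and Fzr1, the activator of the anaphase-promoting complex outside mitosis, at -0.54 ± 0.068 (adjusted p = 1.59e-04, 0.0173 and 6.75e-05).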

How the data were processed

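RNA of 12 samples was labelled with biotin and hybridised to Illumina arrays, per the labels' protocols. The deposited table was taken unchanged as log2 values, and the authors appear to have quantile normalized it, because the sorted columns nearly coincide (no rank spans more than 5.43e-04). For log base and background correction: not given in the sources used here. A second deposited table, with 24 columns that could not be tied to samples, was not used.

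Probe numbers were read as NCBI gene numbers and named through RefSeq GRCm38.p6. The share that matched a gene was 81.1% where 1 zero precedes the number and 84.8% where 2 do, and 40.9% and 41.3% once the numbers were shifted by 7. Names after 2 zeros were left out in an alternative, and 23 of the 51 tested members rest on them: Ccne2, Cdc6, Orc3, Orc4, Cdc14b, Cdc26, Cdc27, Kif18b, Kifc5b, Rrm2, Rrm2b, Top2b, Kif1b, Kif1c, Kif21a, Kif27, Cdc40, Cdc42, Cdc42ep2, Cdc42ep3, Cdc5l, Cdc73 and Pole3. Probes of related genes may share signal.

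After 545 control probes were left out, a probe was kept where it exceeded, on at least 2 arrays, the 95th percentile of 51 probes for foreign sequences. The brightest kept probe stood for a gene. limma 3.58.1 in R 4.3.3 fitted a mean for each of 6 groups over all 12 arrays (residual degrees of freedom 6, prior 3.77, and a typical SD of 0.12), and the fit was tested on simulated data. p-values were adjusted by Benjamini-Hochberg over 23442 features within each of 10 contrasts, and a gene was called at an adjusted p under 0.05. With a group at background on both arrays, the fold is a bound, taken against the higher of the limit and the gene's own signal on each dim array. The number of arrays limits the precision. Members, roles and lists were chosen with earlier results of these data known. Members called were named, up to 5 per direction and role. Uncalled members were named with values only where they are core replication or mitosis genes, except Kif4, which was picked after its values were seen. Shared replicate numbers were not treated as pairs. Of 15 pairs of groups, 2 had deviations that correlated above 0.1 (r from -0.381 to 0.339). With 2 arrays per group this count cannot exclude pairing.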

Additional observations from a re-analysis of the deposited data

Results flagged for a closer look

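Of the members, 6 had a tumour difference in Notch-activated mice that limma called apart from that in the wild type. The size was -0.96 for Kif3a, -0.53 for Kif1b, 0.81 for Kif21a, -0.79 for Rfc2 and -0.56 for Rfc3 on the log2 scale. For Kif3c it was -1.03, with both normal groups at background. Rfc2 is the member of these that was called in opposite directions in the tumours of the 2 genotypes. The calls of Kif21a and Kif3a held without each of the 12 arrays, and those of Kif1b, Rfc2 and Rfc3 did not. That of Kif3c also held, but Kif3c was kept through the tumour arrays alone, so its call is only a description. No explanation of these differences was tested.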

How the results depend on the processing

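No result reversed. Counts of members called, in the order wild type, Notch-inactivated, Notch-activated and mean tumour difference, ranged over fits that left out 1 array from 9 to 17, 11 to 21, 1 to 7 and 20 to 25. For Notch activation they ranged from 1 to 2 in normal tissue, 6 to 13 in tumours and 3 to 7 for the tissue dependence. For Notch inactivation they were 0 to 3, 0 to 0 and 0 to 1. The lone array left in a group was assumed to vary like the others. With cyclic loess, 8 members were called in the Notch-activated tumour difference and 1 for Notch inactivation in normal tissue. With names after 1 zero only, the counts were 11 (Notch-inactivated tumour difference), 15 (mean), 1 and 8 (Notch activation in normal tissue and in tumours) and 0 (Notch inactivation in normal tissue), since fewer genes were tested. An intensity trend gave 1 for Notch inactivation in normal tissue. The replicate block gave 1 each for Notch activation and Notch inactivation in normal tissue, and 17, 22, 5 and 25 for the tumour differences. For named genes, 230 values lost the call, 15 gained it and 2846 kept their side. A background limit from MJ control probes, chosen after seeing the data, moved no count by over 1.5 times. Genes near background (Kif3c, Orc4, Rrm2b, Kifc2) allow only bounds.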
